A study of Homo sapiens with 6 samples.

Results

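The E2F factors and the RB genes form the switch that lets a cell pass from G1 into S phase. The genes described here are E2F1 to E2F8, RB1 and RBL1, taken by name from a table of raw RNA-seq counts. All 10 were found among its 58735 gene rows, and all 10 had enough counts to be tested. The libraries came from wild-type ACHN, a single established kidney cancer line of human origin, labelled clear cell carcinoma. There were 3 curcumol libraries and 3 control libraries, described as independent biological replicates. Curcumol is a sesquiterpenoid of Curcuma rhizomes, given at what the submitters call an effective concentration. Control cells had vehicle by their labels but no drug by the series text, which leaves it unclear whether a vehicle was added. Neither the dose nor the time of exposure is stated in the sources used here.

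E2F proteins bind DNA at sites with a run of T followed by C and G, most of them together with a DP partner. E2F1, E2F2 and E2F3 are activators of genes for DNA replication. E2F4 and E2F5 repress the same genes in resting cells, bound to the RB relatives p107 (gene RBL1) and p130 (gene RBL2). E2F6 represses without RB proteins, through Polycomb complexes, and the atypical factors E2F7 and E2F8 repress without a DP partner. The RB protein, product of RB1, holds the activators until cyclin-dependent kinases phosphorylate it. Several of these genes are themselves known E2F targets, among them E2F1, E2F2, E2F7, E2F8 and RBL1.

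Words of the kind that E2F proteins bind were looked for at the starts of these genes. RefSeq promoter windows (GRCh38.p14, 250 bases before the start to 50 from it on) matched 8 of the 10 genes by symbol. E2F5 and E2F8 had no window. The window listed for RB1 lay 95200 bases from the nearest annotated protein-coding start of that gene and was not read. The windows were searched on both strands for the words TTTCCCGC, TTTCCCGG, TTTCGCGC, TTTCGCGG, TTTGCCGC, TTTGCCGG, TTTGGCGC and TTTGGCGG. At least 1 of them stood in 6.19% of the 35116 windows of all genes, and in 8.99% of the 15429 windows of genes tested here. The stretches below are shown because 4 of the genes carry closely spaced copies of the word just before the start, and because these genes did not move alike under curcumol. Each runs 5′ to 3′ on the strand of its gene, from 90 bases before the start to 10 from it on, with the E2F words of either strand in capitals.
E2F1, chr20:33686376-33686475, minus strand: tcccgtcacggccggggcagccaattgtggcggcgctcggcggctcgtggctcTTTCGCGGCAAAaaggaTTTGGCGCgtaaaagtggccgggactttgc
E2F2, chr1:23531224-23531323, minus strand: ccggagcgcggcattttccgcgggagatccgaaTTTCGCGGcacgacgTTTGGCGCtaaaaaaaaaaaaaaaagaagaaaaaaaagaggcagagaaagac
RBL1, chr20:37095988-37096087, minus strand: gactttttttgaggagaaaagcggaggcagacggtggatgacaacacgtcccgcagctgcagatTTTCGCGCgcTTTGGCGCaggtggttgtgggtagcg
E2F3, chr6:20401789-20401888, plus strand: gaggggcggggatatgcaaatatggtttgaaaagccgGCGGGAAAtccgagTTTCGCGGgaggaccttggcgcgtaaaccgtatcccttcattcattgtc
E2F6, chr2:11466152-11466251, minus strand: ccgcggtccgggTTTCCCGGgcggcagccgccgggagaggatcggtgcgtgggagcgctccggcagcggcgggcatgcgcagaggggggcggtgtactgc
E2F7, chr12:77065560-77065659, minus strand: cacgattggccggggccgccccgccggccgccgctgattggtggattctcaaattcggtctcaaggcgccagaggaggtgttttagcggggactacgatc

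The word TTTCGCGG stood in the windows of E2F1, E2F2 and E2F3, and TTTGGCGC in those of E2F1, E2F2 and RBL1. In E2F1 the first capital run holds 2 overlapping matches, TTTCGCGG on the gene strand and TTTGCCGC on the other. E2F6 had TTTCCCGG at 2 places, of which the one nearer the start is in the stretch shown. E2F4, E2F7 and the second annotated start of E2F3 had no match in their windows. The CCAAT box, known as a site of NF-Y, stood in the windows of E2F1, E2F3 and E2F7 and in 34.6% of all windows. The cell cycle homology region (CHR, words TTTGAA and TTCGAA) was matched in the window of E2F3, against 16.4% of all windows. A match is a description of letters and not a measured binding site.

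**Figure D1:**
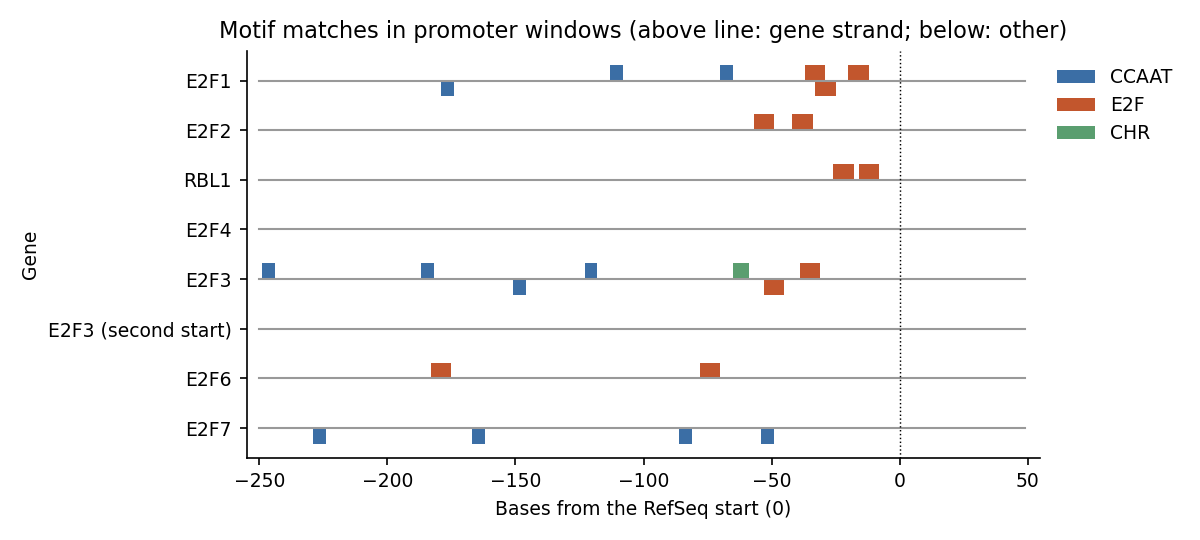
Matches to E2F words, CHR words and CCAAT boxes in the promoter windows, plotted by distance in bases from the RefSeq start, with matches on the gene strand above each line and those on the other strand below it. E2F1, E2F2, RBL1 and E2F3 have their E2F words within the last bases before the start, E2F6 has its 2 farther away, and E2F4, E2F7 and the second start of E2F3 have none.

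Curcumol libraries held 17256960 to 17410920 counts and control libraries 16962012 to 17827433. Counts were scaled with TMM and given as CPM, the counts per 1e+06 of the TMM-scaled library, and 15160 genes were tested with the edgeR quasi-likelihood test. Of these, 12076 passed at a Benjamini-Hochberg adjusted p of 0.05, which is 79.7% of the genes tested. The TMM factors were 0.9003 to 0.9195 in curcumol and 1.089 to 1.103 in control. TMM takes most genes to be unchanged, which so large a share makes uncertain, so small changes depend on the scaling. The line carried kidney markers in both groups, with PAX8 at 60.1 ± 3.38 CPM in curcumol and 192 ± 4.49 CPM in control (SD, n = 3 each). CA9, a hallmark of clear cell carcinoma, had 0, 2 and 3 counts in curcumol and 0, 1 and 0 in control, so it was near 0 in every library. Log2 fold change was lower in genes of higher transcript GC content (Spearman rho -0.347 over 15154 genes, which are not independent of each other). The value with an offset for GC content is therefore given beside each of the 10 genes, and beside some others that it moved.

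Curcumol was followed by a changed make-up of the E2F family. E2F1, E2F2, E2F4, E2F5, E2F8 and RBL1 fell, E2F3, E2F6 and E2F7 rose, and RB1 did not pass. The 6 genes that fell are to be read beside the 40.3% of all tested genes that were lower, and the 3 that rose beside the 39.4% that were higher. The 2 groups of libraries did not overlap for 9 of the 10 genes, as for 81.0% of all genes tested. The median log2 fold change of the 10 genes was -1.0, beside -0.02 over all genes tested. Bulk RNA does not separate fewer cells in a phase of the cycle from less RNA per cell.

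**Figure D2:**
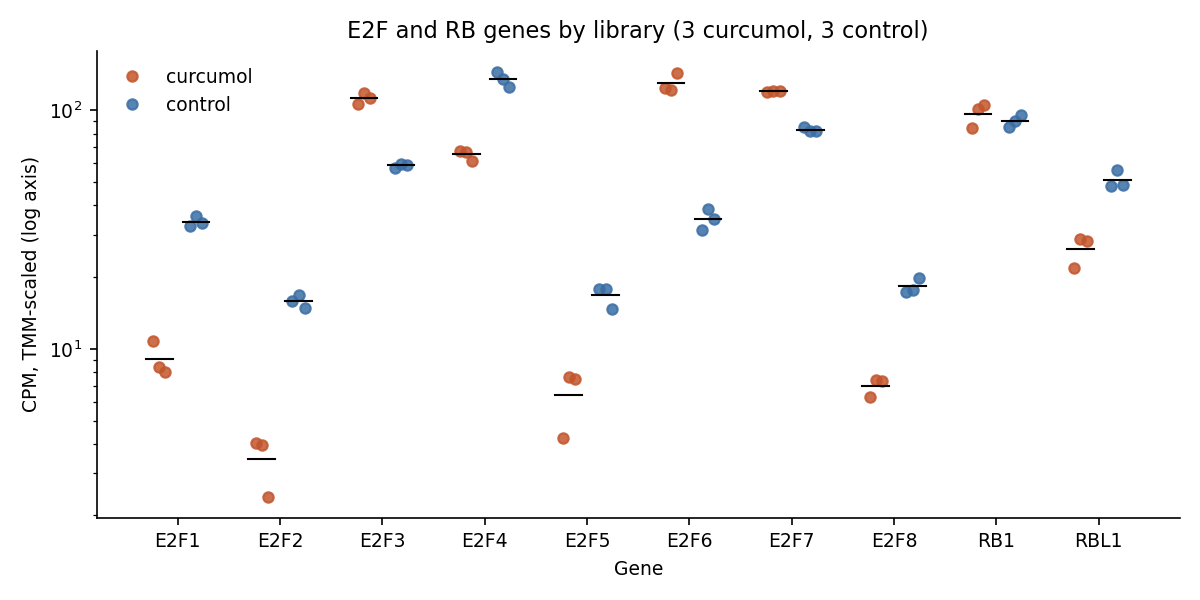
TMM-scaled CPM of each E2F and RB gene on a log axis, with a point for each library (3 curcumol, 3 control) and a black line at the mean. The groups overlap for RB1 and for no other gene shown. E2F1, E2F2, E2F4, E2F5, E2F8 and RBL1 are lower in curcumol, and E2F3, E2F6 and E2F7 are higher.

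Among the activators, E2F1 and E2F2 fell while E2F3 rose. E2F1, the activator that is also tied to apoptosis (ENSG00000101412, chromosome 20, 33675683 to 33686404, GRCh38), had 169, 134 and 127 counts in curcumol, against 606, 698 and 652 in control. Every curcumol library was below every control library. Its mean was 9.09 ± 1.52 CPM in curcumol and 34.1 ± 1.74 CPM in control (SD, n = 3 each), a log2 fold change of -1.91 ± 0.12 (edgeR SE, adjusted p = 1.69e-12). E2F1 has a GC content of 62.5%, above that of 92.6% of the genes tested, and its log2 fold change was -1.21 with the GC offset.

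E2F2, the least abundant of the activators (ENSG00000007968, chromosome 1, 23506430 to 23531220), had 63, 63 and 38 counts in curcumol, against 296, 326 and 289 in control. The libraries did not overlap, and curcumol replicate 3 was the lowest. With TMM it had the largest fall of the 10 genes, at -2.20 ± 0.17 on the log2 scale (SE, edgeR adjusted p = 7.12e-11). With the GC offset it was -1.77, and E2F5 had the larger fall.

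E2F3 (ENSG00000112242, chromosome 6, 20401906 to 20493715) had 1656, 1873 and 1795 counts in curcumol, against 1071, 1162 and 1141 in control. Its level was 112 ± 5.83 CPM in curcumol and 58.8 ± 1.16 CPM in control (SD, n = 3 each), with 0.93 ± 0.07 as the log2 fold change (SE, and edgeR adjusted p = 3.62e-11). With the GC offset it was 0.64. E2F3 makes an activating and a repressing protein from separate starts, and counts per gene do not tell them apart. Within a library, E2F3 had 9.8, 14 and 14.1 counts for each count of E2F1 in curcumol, against 1.77, 1.66 and 1.75 in control. Curcumol replicate 1 had the lowest of the curcumol ratios and was still far from all control libraries.

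Among the factors that repress with p107 and p130, both fell. E2F4 (ENSG00000205250, chromosome 16, 67192169 to 67198918), the main E2F of resting cells, had 1060, 1067 and 972 counts in curcumol, against 2686, 2612 and 2416 in control. The groups were far apart, with 65.4 ± 3.54 CPM in curcumol and 135 ± 9.91 CPM in control (SD, n = 3 each). E2F4 fell, with a log2 change of -1.04 ± 0.07 (SE, and 1.36e-11 as the edgeR adjusted p). E2F4 is rich in GC (59.3%), and its log2 fold change was -0.48 with the GC offset.

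E2F5 (ENSG00000133740, chromosome 8, 85177225 to 85217158) had 66, 121 and 118 counts in curcumol, against 333, 347 and 285 in control. Curcumol replicate 1 was the lowest library. It fell, with a log2 change of -1.39 ± 0.17 (SE, and 3.21e-07 as the edgeR adjusted p), and of -1.96 with the GC offset. Its GC content was 40.0%. E2F5 shares 969 exonic bases with C8orf59 on the other strand, and nothing states that strand was used in counting, which makes its counts uncertain. C8orf59 itself had 128, 145 and 141 counts in curcumol, against 190, 215 and 226 in control.

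E2F6, the Polycomb-linked repressor (ENSG00000169016, chromosome 2, 11444375 to 11466177), rose most. It had 1933, 1942 and 2287 counts in curcumol, against 584, 749 and 680 in control. The lowest curcumol library was above the highest control library by a wide margin, and curcumol replicate 3 stood highest. The means were 130 ± 12.5 CPM in curcumol and 35.1 ± 3.61 CPM in control (SD, n = 3 each), a log2 fold change of 1.89 ± 0.08 (edgeR SE, adjusted p = 1.13e-14). With the GC offset it was 1.64. Its annotated pseudogenes E2F6P1, E2F6P2, E2F6P3 and E2F6P4 held 10, 0, 2 and 1 counts over the 6 libraries. Within a library E2F6 had 1.82, 1.82 and 2.35 counts for each count of E2F4 in curcumol, against 0.217, 0.287 and 0.281 in control.

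The atypical repressors moved apart. E2F7, also known as a target of p53 (ENSG00000165891, chromosome 12, 77021247 to 77065580), had 1872, 1926 and 1924 counts in curcumol, against 1578, 1596 and 1585 in control. The replicates of each group lay close together, at 121 ± 0.797 CPM in curcumol and 83.0 ± 1.66 CPM in control (SD, n = 3 each). E2F7 rose by 0.54 ± 0.06 on the log2 scale (SE, edgeR adjusted p = 6.22e-08), the smallest change of the genes that passed. It was 0.28 with library totals and 0.25 with the GC offset, and it passed in both.

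E2F8, which acts with E2F7 in the control of endocycles in the mouse (ENSG00000129173, chromosome 11, 19224063 to 19241620), had 98, 118 and 116 counts in curcumol, against 324, 343 and 384 in control. It fell, with -1.39 ± 0.13 as the log2 fold change (SE, and edgeR adjusted p = 1.54e-09), or -1.57 with the GC offset, and its groups did not overlap. The count ratio of E2F7 to E2F8 within a library was 19.1, 16.3 and 16.6 in curcumol, against 4.87, 4.65 and 4.13 in control.

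Of the RB genes, RB1 (ENSG00000139687, chromosome 13, 48303726 to 48599436) did not pass. It had 1323, 1603 and 1663 counts in curcumol, against 1581, 1746 and 1861 in control. Scaled, the mean was 96.8 ± 10.7 CPM in curcumol and 90.4 ± 5.50 CPM in control (SD, n = 3 each), with curcumol replicate 1 below all control libraries and the others above them. Its fold change was 0.10 ± 0.08 on the log2 scale (SE, edgeR adjusted p = 0.249), and without curcumol replicate 1 it was 0.19 and passed (edgeR adjusted p = 0.015). Its sign depended on the scaling, with -0.17 under library totals (edgeR adjusted p = 0.0676) and -0.50 with the GC offset (edgeR adjusted p = 8.11e-09). RB1 has the lowest GC content of the 10 genes, 39.3%.

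RBL1, the gene of p107 (ENSG00000080839, chromosome 20, 36996349 to 37095995), had 340, 459 and 449 counts in curcumol, against 894, 1085 and 947 in control. All curcumol libraries were lower. Its means were 26.3 ± 3.94 CPM in curcumol and 51.0 ± 4.34 CPM in control (SD, n = 3 each), a log2 fold change of -0.95 ± 0.10 (edgeR SE, adjusted p = 1.94e-08), or -1.46 with the GC offset. E2F1 and E2F2, with which it shares the word TTTGGCGC before the start, also fell. E2F3, which shares TTTCGCGG with E2F1 and E2F2, rose, as did E2F6, which has TTTCCCGG. Of the genes without a match in their windows, E2F4 fell and E2F7 rose. Whether these words bear on the changes was not tested.

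**Figure D3:**
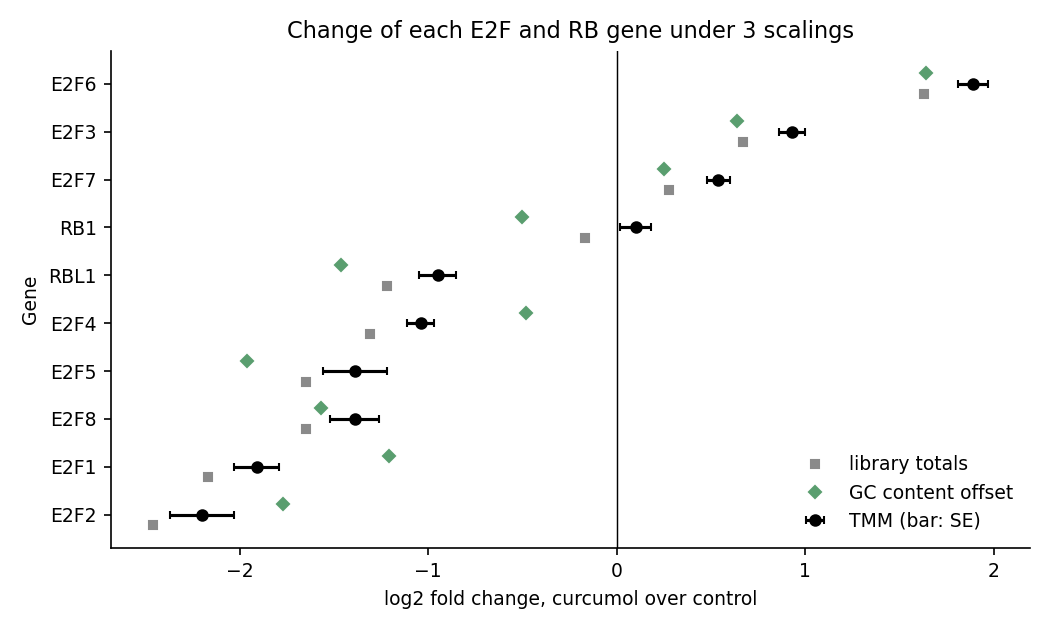
Log2 fold change, curcumol over control, of each E2F and RB gene, with TMM scaling in black (bar, SE), library totals as grey squares and the GC content offset as green diamonds. Each gene but RB1 stays on its side of 0 under the 3 scalings, while RB1 is at 0.10, -0.17 and -0.50.

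RBL2, the gene of p130, is the remaining RB relative and was named for comparison. It had 185, 170 and 161 counts in curcumol, against 1019, 1050 and 1118 in control, with no overlap. It fell, with a log2 change of -2.35 ± 0.09 (SE, edgeR adjusted p = 1.73e-15), further from 0 than that of any of the 10 genes, although the difference from them was not tested. RBL2 shares 610 exonic bases with AKTIP on the other strand. AKTIP itself fell, at -0.81 ± 0.12 on the log2 scale (SE, edgeR adjusted p = 4.05e-06).

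To compare levels between genes, CPM was divided by the length in kb of the longest principal transcript of each gene. In curcumol E2F6 stood highest at 40.4 ± 3.87 CPM per kb, followed by E2F4 at 31.2 ± 1.69 and E2F3 at 23.7 ± 1.23 (SD, n = 3). E2F7 at 21.0 ± 0.139 and RB1 at 20.2 ± 2.22 CPM per kb came next, and their libraries overlapped. RBL1 at 4.63 ± 0.693, E2F5 at 3.72 ± 1.10 and E2F1 at 3.63 ± 0.607 CPM per kb overlapped each with the next. E2F8 was at 1.99 ± 0.179 and E2F2 last at 0.667 ± 0.178 CPM per kb.

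In control the order of levels per kb was another. E2F4 led at 64.2 ± 4.73 CPM per kb, above RB1 at 18.9 ± 1.15 (SD, n = 3). E2F7 at 14.5 ± 0.289 overlapped with E2F1 at 13.6 ± 0.696, and E2F3 followed at 12.4 ± 0.244 CPM per kb. E2F6 at 10.9 ± 1.12 overlapped with E2F5 at 9.75 ± 1.07, which overlapped with RBL1 at 8.97 ± 0.763 CPM per kb. E2F8 at 5.21 ± 0.372 and E2F2 at 3.06 ± 0.183 CPM per kb were the lowest. The lengths matter here, since with all exons joined E2F4 ranked after E2F6, E2F3 and E2F7 in curcumol, at 18.3 ± 0.987 CPM per kb. E2F7 was close to it, with curcumol libraries at 19.0 to 19.3 CPM per kb, against 17.1 to 19.0 for E2F4. On that length E2F5 was the lowest in control, at 2.84 ± 0.311 CPM per kb (SD, n = 3), and overlapped with E2F2.

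As a share of the summed CPM per kb of the 8 E2F genes, E2F6 made up 31.2%, 30.0% and 34.7% in curcumol, against 7.12%, 8.81% and 8.55% in control. E2F4 made up 26.2%, 25.3% and 22.7% in curcumol, against 50.3%, 47.2% and 46.7% in control. The groups did not overlap for either gene, and E2F6 took the first place that E2F4 held in control. E2F1, E2F2 and E2F3 together held 22.1% ± 0.788 in curcumol and 21.8% ± 1.03 in control (SD, n = 3 each), so the summed share of the activators differed by less than the spread between replicates. With all exons joined as the length it was 26.5% ± 1.01 in curcumol and 29.5% ± 1.10 in control, and the libraries did not overlap.

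Within the activators the make-up turned over. E2F3 held 81.4%, 85.7% and 86.7% of their summed CPM per kb in curcumol, against 43.0%, 41.7% and 43.2% in control. E2F1 held 15.8%, 11.6% and 11.6% in curcumol, against 46.1%, 47.6% and 46.8% in control. Among the RB genes, RB1 held 73.9%, 74.3% and 75.6% of the sum of RB1, RBL1 and RBL2 in curcumol, against 47.5%, 47.4% and 49.6% in control. That sum was 27.0 ± 2.73 CPM per kb in curcumol and 39.2 ± 1.58 CPM per kb in control (SD, n = 3 each). These shares were computed after the changes of the genes were known and carry no test.

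**Figure D4:**
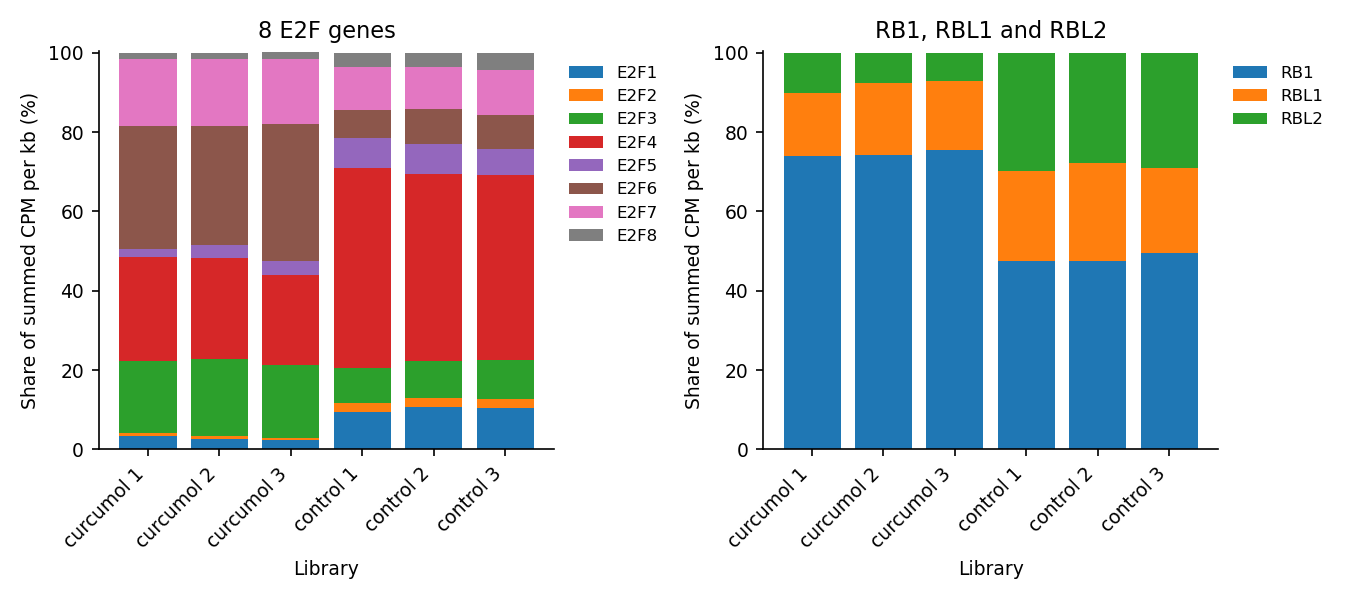
Share in percent of each gene in the summed CPM per kb of principal transcript, with a bar for each library, for the 8 E2F genes on the left and for RB1, RBL1 and RBL2 on the right. In curcumol E2F6 and E2F3 take larger shares and E2F4, E2F1 and RBL2 smaller ones than in control, and all 3 libraries of each group look alike.

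The partners of the E2F factors went in both directions, as did the genes tested as a whole. Of 11 genes of the list of DP partners, RBL2, the MuvB core and the factors it recruits, 10 were tested. Of these 5 rose and 5 fell, and the median was 0.00 on the log2 scale, beside 39.4% higher and 40.3% lower among all genes tested. The median was -0.26 with library totals and -0.71 with the stricter filter, which left 9 genes, and 4 genes were higher in place of 5 under 10 of 14 alternatives. TFDP1, the main DP partner, had 1147, 1100 and 904 counts in curcumol, against 3739, 3918 and 3813 in control, with -1.59 ± 0.08 as the log2 fold change (SE, and edgeR adjusted p = 3.32e-14). TFDP2, the other widely used DP partner, had 773, 730 and 882 counts in curcumol, against 531, 519 and 574 in control, a log2 fold change of 0.83 ± 0.09 (edgeR SE, adjusted p = 2.15e-08). Both pairs of groups were separate. TFDP3 had no count in any library.

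The MuvB core binds E2F4 or E2F5 and p107 or p130 in the DREAM complex that silences cell cycle genes. LIN54, its DNA-binding subunit, had 2280, 2382 and 2576 counts in curcumol, against 332, 366 and 431 in control, that is 2.96 ± 0.08 on the log2 scale (SE, edgeR adjusted p = 8.03e-18). LIN52 (1.49), LIN9 (0.74) and LIN37 (0.87) rose as well on the log2 scale, and LIN37, with 27, 24 and 25 counts in curcumol and 24, 12 and 14 in control, had an edgeR adjusted p of 0.0368. The call of LIN37 held in 5 of the 13 alternatives that tested it, and LIN9 was at 0.13 and not called with the GC offset. RBBP4, a histone-binding subunit, fell, with a log2 change of -0.73. MYBL2 (-1.30) and FOXM1 (-1.09), activators that MuvB recruits later in the cycle, fell. LIN52, LIN9, LIN37, RBBP4, MYBL2 and FOXM1 were named after their values were seen.

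The next list held the kinases that phosphorylate RB, their cyclins, their inhibitors and the phosphatase CDC25A. CDC25A, named after its value was seen, was called higher (0.22 on the log2 scale), but not under 3 of 14 alternatives. Of the 17 genes of this list, 9 were lower and 6 higher (52.9% and 35.3%), beside 40.3% lower and 39.4% higher among all genes tested. The median was -0.45, and with library totals 10 were lower and 4 higher. CCND1, cyclin D1, had 1868, 1856 and 1820 counts in curcumol, against 6975, 7819 and 7536 in control, with -1.73 ± 0.06 as the log2 fold change (SE, and edgeR adjusted p = 7.52e-17). CCNA2, cyclin A2, is an E2F target and changed by -2.28 ± 0.07 on the log2 scale. On the other strand CCND1 shares 497 exonic bases with LTO1, CCNA2 shares 254 with EXOSC9 and CDK4 shares 1369 with TSPAN31. Their counts are uncertain there, as no strand setting is stated. CDKN2D, the CDK4 and CDK6 inhibitor p19, rose by 3.02 ± 0.15 on the log2 scale (SE, edgeR adjusted p = 8.82e-14), and was at 3.67 with the GC offset. CDK4 (-1.02) and CDK6 (-0.81) fell, both named after their values were seen. The other CDK inhibitors of the list, also named after their values were seen, did not move alike. CDKN1A (2.05), CDKN2B (2.25), CDKN1C (3.11) and CDKN2C (0.27) rose, while CDKN1B (-0.45) and CDKN2A (-1.69) fell. CDKN2A had only 3 counts in each curcumol library, against 11, 13 and 12 in control. CDKN1C was low as well, with 41, 39 and 30 counts in curcumol, against 9, 1 and 5 in control, and an SE of 0.47. CDKN2C lost its call under 3 of 14 alternatives.

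Of 33 G1/S genes known as E2F targets, 32 were tested, of which 26 fell, 3 rose and 3 did not pass. These are 81.2% lower and 9.38% higher, beside 40.3% and 39.4% of all genes tested, and the median log2 fold change was -1.01. The helicase genes MCM5 (-2.56 ± 0.09), MCM6 (-1.87 ± 0.07) and MCM4 (-1.75 ± 0.06) had the smallest p of the list. The genes that rose, named after their values were seen, were ORC1 (0.90) and CDC6 (0.18), which load the helicase, and SLBP (0.83), which binds histone mRNA. CDC6 was at -0.08 with the GC offset and lost its call under 3 of 14 alternatives. Of the genes that fell, CDT1 (0.43), MCM7 (0.14) and FEN1 (0.06) were above 0 with the GC offset. The list then had 26 genes called lower and 4 higher, not all of them the same genes. With library totals 2 rose and 28 fell.

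Of 17 G2/M genes known as targets of DREAM, B-MYB and FOXM1, 12 fell and 2 rose (70.6% and 11.8%), beside 40.3% lower and 39.4% higher among all genes tested, and the median was -0.57. PLK1 (-2.26 ± 0.09), CDC20 (-1.81 ± 0.07) and CCNB1 (-1.25 ± 0.07), which drive entry into and exit from mitosis, fell. The genes that rose were the kinases TTK (0.72) and NEK2 (0.48), named after their values were seen, and neither was called higher with the GC offset.

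Partners of E2F6 in the Polycomb complex PRC1.6 were split. Of its 12 genes, 5 passed as higher and 5 as lower, or 41.7% each, near the 39.4% and 40.3% of all genes tested. The median was -0.11, with 0.08 under the GC offset and -0.37 under library totals, where 7 were lower. MAX, which dimerizes with MGA, rose by 1.19 ± 0.06, and the related subunits RYBP and YAF2 rose by 1.33 ± 0.08 and 1.80 ± 0.10 on the log2 scale. The genes that fell, named after their values were seen, were WDR5 (-1.16), RING1 (-1.03), RNF2 (-0.76), CBX3 (-0.52) and MGA (-0.18). With the GC offset their order changed, with RNF2 at -1.32, CBX3 at -1.06, WDR5 at -0.66, MGA at -0.59 and RING1 at -0.41. MGA lost its call under 5 of 14 alternatives. Of 10 apoptosis genes known as E2F1 targets, 9 were tested, of which 7 rose and 1 fell (77.8% and 11.1%), beside 39.4% higher and 40.3% lower among all genes tested, and the median was 1.23. PMAIP1, the gene of NOXA, rose by 2.22 ± 0.07 on the log2 scale. MAP3K5, the kinase ASK1, fell, with a log2 change of -2.16 and was named after its value was seen. With library totals, without a filter and with the GC offset 2 genes of this list were lower. With library totals and with the GC offset 6 were higher. On the other strand BCL2L11 shares 727 exonic bases with MIR4435-2HG, and DIABLO shares 970 with B3GNT4. Both rose and were named after their values were seen, and their counts are uncertain there.

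**Figure D5:**
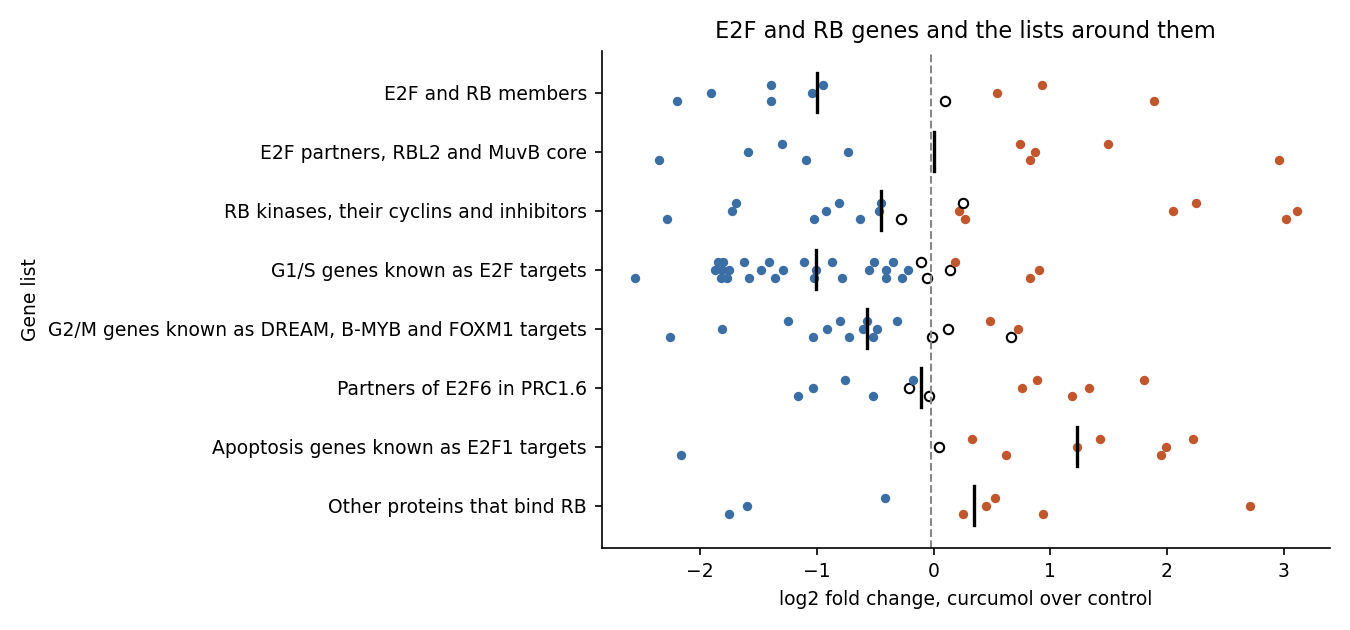
Log2 fold change, curcumol over control, of each tested gene of the E2F and RB group and of the 7 lists around it, with orange points for genes that rose, blue for genes that fell and open points for genes that did not pass. Black bars mark the median of each list and the dashed line the median of all tested genes, -0.02, with the G1/S list lowest of the 7 at -1.01 and the apoptosis list highest at 1.23.

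Genes whose profile was most like that of E2F6 or E2F2 were sought among 10430 genes, by the root mean square distance of log2 CPM centred on the control mean over 6 libraries. THAP1, ETV3 and HSF2 were nearest to E2F6, at distances of 0.0672, 0.0697 and 0.071, and rose by 1.96, 1.94 and 1.98 on the log2 scale. With the GC offset THAP1 was at 1.31, further from E2F6. SEPTIN6, DENND2D and AP4M1 were nearest to E2F2, at distances of 0.0449, 0.0704 and 0.0726, and their log2 fold changes were -2.20, -2.06 and -2.22. With the GC offset SEPTIN6 was at -2.18 and E2F2 at -1.77, further apart. SEPTIN6 appears in the deposited table under a name turned into a date, as do 27 names in all, and was read from its identifier. AP4M1 shares 392 exonic bases with MCM7 on the other strand.

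Of 9 renal epithelial markers tested none rose and 7 fell, beside 40.3% lower among all genes tested. Markers of other cell types were low. The summed level of 6 leukocyte markers was 5.12 to 5.84 CPM in curcumol and 0.108 to 0.258 CPM in control. In curcumol most of that sum came from CD14. PTPRC had 5, 8 and 7 counts in curcumol and 0 in each control library, and CD3E had 0 in all libraries. Of 6 fibroblast markers the sum was 7.69 to 22 CPM in curcumol and 7.07 to 8.29 CPM in control, highest in curcumol replicate 2. Of 5 endothelial markers it was 0.384 to 1.14 CPM in curcumol and 0.155 to 0.161 CPM in control. Their part in the results was not tested, and without curcumol replicate 2 the same 3 E2F genes rose and the same 6 genes fell.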

How the data were processed

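The authors deposited raw counts per Ensembl gene and library, whole numbers that were not normalized. The build listed is GRCh38, also named hg38, per the submitters' processing notes. The labels' protocols name poly(A) selection and paired-end Illumina sequencing. The sources used here name no aligner, counting tool, annotation release or strand setting. All 58735 identifiers are in GENCODE 29, which gave positions, lengths, exon overlaps and GC content of transcripts.

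filterByExpr kept 15160 genes, which were scaled by TMM and put to the quasi-likelihood test of edgeR 4.0.16 (R 4.3.3, robust, both directions), adjusted over all genes tested. The SE of a log2 fold change is its size over the square root of its F statistic. No library repeated another, since chi-square over its degrees of freedom was 3.58 to 8.58 between replicates. With 3 libraries a group, their number limits precision, and low counts add counting error. The code was tested on simulated counts.

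The genes and lists were chosen with earlier results of these data known. Named were all 10 genes, the 3 called genes with the smallest p of each of 7 lists, RBL2, TFDP1, TFDP2 and the genes of most similar profile (pseudocount 0.5 CPM, mean of at least 100 counts). Some genes that this rule names are not reported here. DIABLO stands under 2 identifiers, and the one in current gene names was used. The GC offset used, for each library, a spline of 5 degrees of freedom. Other alternatives were DESeq2 1.42.0, limma-voom (limma 3.58.1), RLE size factors, library totals, 2 filters, a replicate block and each library left out.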

Additional observations from a re-analysis of the deposited data

How the results depend on the processing

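Of 38 named genes, most were picked for a small p or a similar profile in these same data, which favours steady calls. Under 14 alternatives, 529 of 532 of their values kept their direction and their side of the threshold. The exceptions were RB1 with library totals (-0.17) and with the GC offset (-0.50), where its sign turned, and without curcumol replicate 1 (0.19), where it passed. The cause was not tested. Library totals moved the median of all genes to -0.28, from -0.02 with TMM, and RB1 lay above that median. The number of E2F and RB genes called was 3 higher and 6 lower under 12 alternatives, 7 lower with the GC offset and 4 higher without curcumol replicate 1, RB1 being the added gene both times. Over all genes 4818 were higher and 7372 lower with library totals. Leaving out each library gave 5903 to 6072 higher and 5967 to 6232 lower. Samples with the same replicate number did not deviate together (r of deviations 0.0238, -0.0123 and 0.0751). With the replicate number as a block 5955 genes were higher and 6131 lower, and the calls of the 10 genes did not change. Among lists, genes called higher in G2/M numbered 0 with the GC offset in place of 2, and genes called lower in apoptosis 2 in place of 1 with library totals, no filter and the GC offset. Some list genes that were not picked by p were less steady. LIN37 had another call than in the main fit under 8 of 13 alternatives, and EZH2 and UBE2C under 7 of 14. Depth limits E2F2, E2F5 and E2F8 most, since they had 38 to 121 counts per curcumol library.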

Other observations

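Of 8 other genes whose proteins bind RB, 5 rose and 3 fell, and the median was 0.35 on the log2 scale, or -0.07 with the GC offset, under which 4 were higher and 4 lower. Among all genes tested 39.4% were higher and 40.3% lower. ARID4A, which links RB to histone deacetylases, rose by 2.71 ± 0.15 on the log2 scale (SE, edgeR adjusted p = 1.63e-10), and was at 2.09 with the GC offset. The ATPase genes of the SWI/SNF remodelling complex moved apart, with SMARCA2 at 0.94 ± 0.07 and SMARCA4 at -1.75 ± 0.07. The demethylase KDM5A (0.45) rose and the methyltransferase SUV39H1 (-1.60) fell, both named after their values were seen.

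Some extracellular matrix genes had their highest curcumol count in replicate 2. COL1A2 had 1, 70 and 0 counts in curcumol and 0 in all control libraries, LUM had 0, 22 and 0 in curcumol and 0 in control, and COL3A1 had 28, 58 and 23 in curcumol and 0 in control. COL1A1 went the other way between groups, with 14, 66 and 27 counts in curcumol and 100, 91 and 94 in control (edgeR adjusted p = 0.0162). CD14 had 71, 77 and 67 counts in curcumol, against 0, 3 and 2 in control.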
